A study of Mus musculus with 6 samples.

Results

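The unfolded protein response and the chaperones of the endoplasmic reticulum (ER) were followed in mouse muscle satellite cells, the stem cells of skeletal muscle, with and without the DNA methyltransferase gene Dnmt1. The set was a list of 32 genes named for their roles, and all 32 were rows of the 23420-gene table. Of these, 31 passed the filter on low values, and Derl3 alone did not. RNA was sequenced from 3 control samples and 3 Dnmt1 KO samples. Per the labels, all 6 came from male C57BL/6 mice aged 7 weeks, bred from Pax7-CreERT2 and Dnmt1 flox lines. In this system tamoxifen activates a Cre recombinase expressed from Pax7, the gene of the satellite cell lineage. Tamoxifen or vehicle was given for 5 days in a row. The sources used here do not assign either to a sample or state the Cre status of the controls. Nor do they say whether samples came from separate or pooled animals, so p-values cover only the spread among these 6 samples, part of which may be technical.

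Proteins that enter the ER are folded by chaperones such as BiP (Hspa5), and a load of unfolded protein is sensed there by the membrane proteins IRE1 (Ern1), PERK (Eif2ak3) and ATF6. IRE1 splices the Xbp1 messenger into the form that encodes an active factor, and ATF6 is cut to release a transcription factor. Together these induce chaperones and the genes of ER-associated degradation (ERAD). PERK phosphorylates the initiation factor eIF2, which slows translation in general but favours that of Atf4, and ATF4 in turn induces amino acid genes and Ddit3, which encodes CHOP. In muscle stem cells, eIF2 phosphorylation by PERK is known for its part in keeping the cells quiescent and alive. The genes were assigned to 3 sensors, 6 genes of the ATF4/CHOP arm, 9 of the XBP1 arm and 14 of the ATF6 arm. Many chaperone genes answer to both XBP1 and ATF6, so the border between these arms is a convention. Gene counts show neither Xbp1 splicing nor the phosphorylation or cleavage of any sensor.

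Promoter sequences are shown for members of the ATF6, XBP1 and ATF4/CHOP arms that the results turn on and that hold a motif of their arm's factors. RefSeq start sites (GRCm38.p6, the assembly of mm10) gave a window of 250 bases before to 50 bases after the start for 28 of the 32 genes. Atf6, Derl1, Hyou1 and Manf had none. The ER stress response element (ERSE), to which ATF6 binds with NF-Y, was searched on both strands as CCAAT and CCACG with 9 bases of any kind between them. It was found in 7 of 12 ATF6-arm genes with a window, in 1 of 8 in the XBP1 arm and in 0 of 6 in the ATF4/CHOP arm, against 0.137% of all 27025 genes with a window. Membership of the arms is a textbook assignment, so these shares describe the lists and test nothing. The 250 bases before the Hspa5 start follow, and then shorter stretches of other promoters, each 5′ to 3′ on the gene's strand with the ERSE in capitals.
Hspa5, chr2:34771840-34772089, plus strand: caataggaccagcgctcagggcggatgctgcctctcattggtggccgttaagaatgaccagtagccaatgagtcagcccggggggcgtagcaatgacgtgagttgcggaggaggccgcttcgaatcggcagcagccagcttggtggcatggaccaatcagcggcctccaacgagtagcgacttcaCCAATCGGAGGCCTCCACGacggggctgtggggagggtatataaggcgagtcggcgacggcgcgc
Hsp90b1, chr10:86705503-86705581, minus strand: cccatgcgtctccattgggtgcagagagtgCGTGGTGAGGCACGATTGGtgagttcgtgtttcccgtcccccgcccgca
Calr, chr8:84847045-84847123, minus strand: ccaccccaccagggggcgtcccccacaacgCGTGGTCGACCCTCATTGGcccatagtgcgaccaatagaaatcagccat
Canx, chr11:50325770-50325848, minus strand: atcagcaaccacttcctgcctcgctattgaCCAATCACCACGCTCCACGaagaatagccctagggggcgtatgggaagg
Pdia6, chr12:17266461-17266539, plus strand: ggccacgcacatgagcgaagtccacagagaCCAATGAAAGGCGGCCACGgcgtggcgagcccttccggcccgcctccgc
Dnajc3, chr14:118937797-118937875, plus strand: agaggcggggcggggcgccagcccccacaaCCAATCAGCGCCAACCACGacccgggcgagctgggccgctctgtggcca
In Hspa5 the exact match to the ERSE spans -65 to -47 from the start, and in Hsp90b1 and Calr the match shown lies on the opposite strand. Copies that differ from the searched letters were neither marked nor counted, so a window without a match may still hold a variant. Hsp90b1 holds another ERSE at -212 to -194, and Creld2 and Derl3 also hold an ERSE.

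The second form of the element, ERSE-II, was searched as ATTGG and CCACG with 1 base between them. It was found in Herpud1 and Dnajb11, and in 0.0444% of all genes with a window. A core of the composite site bound by ATF4 with C/EBP proteins was searched as TGATGNAA. It occurred in 3 of 6 ATF4/CHOP-arm genes (Chac1, Asns and Trib3) and in 1 further member, Herpud1, against 4.51% of all genes with a window. The core TGACGTGG of the XBP1 site (UPRE) was in 0 of the 28 members' windows, and in 0.714% of all genes. Searches covered both strands. Pdia3, Pdia4, Xbp1, Dnajb9 and Atf4 had windows, but these held no match to any motif searched. The stretches of Herpud1 (ERSE-II in capitals), Chac1 and Asns (ATF4 core in capitals) follow, as examples of matches that lie before the start. The Trib3 match, at 14 to 21, lies after the start and is not shown.
Herpud1, chr8:94386347-94386417, plus strand: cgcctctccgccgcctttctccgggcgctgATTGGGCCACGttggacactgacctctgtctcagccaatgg
Chac1, chr2:119351019-119351086, plus strand: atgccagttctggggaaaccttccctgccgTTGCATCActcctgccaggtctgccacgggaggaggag
Asns, chr6:7693210-7693262, minus strand: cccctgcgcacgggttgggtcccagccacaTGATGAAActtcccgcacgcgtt
The ATF4 core of Herpud1, at -112 to -105, lies outside the stretch shown, whose ERSE-II is at -52 to -42. A match describes the letters of a window and is not a binding site or a cause.

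The values are read counts that the authors multiplied by 1 factor per library. Divided by the smallest value of each library, the totals were 954786 to 2021725, which is shallow. A single read was worth 0.691 to 1.43 units. Dnmt1 fell from 614, 539 and 655 (controls 1, 2 and 3) to 74.6, 36.1 and 81.2 in the knockouts (log2 fold change -3.29, SE 0.27, adjusted p = 0.00121, limma). The satellite cell genes Pax7 and Myod1 were present in all 6 libraries, while the markers Calcr and Chrdl2 were low, at 0 to 1.43 and 0 to 8.57. Control replicate 2 stood apart in markers of contractile muscle, with a mean log2 value of 7.74 over 27 genes, against 3.83 and 3.20 in the other controls and 6.51, 6.58 and 4.19 in the knockouts. Bulk RNA cannot tell fewer cells of a type from less RNA per cell.

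Most genes of the ATF6 and XBP1 arms had higher values in the knockout libraries, at a median of 1.31-fold and 1.28-fold, while most of the ATF4/CHOP arm had lower ones. None of the 31 members tested passed the threshold. Together the 32 genes took up 0.797%, 0.796% and 0.783% of the library total in controls 1, 2 and 3. They took up 0.988%, 1.12% and 0.990% in knockouts 1, 2 and 3, and the groups did not overlap. Most of this sum was the abundant ATF6 arm, at 0.627% to 0.643% in controls and 0.815% to 0.929% in knockouts. The ATF4/CHOP arm took up 0.0582% to 0.0676% in controls and 0.0498% to 0.0552% in knockouts. A positive log2 fold change was found in 27 of 31 members, with a median of 0.38, against 0.02 over the 12591 genes tested. The median was 0.39 in the ATF6 arm, with 13 of 13 positive, and 0.36 in the XBP1 arm, with 9 of 9 positive. In the ATF4/CHOP arm it was -0.19, with 2 of 6 positive.

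By limma with Benjamini-Hochberg adjustment over all genes tested, 0 of 31 members were called higher and 0 lower. Over all genes, 1.67% were called higher and 0.0953% lower. At an unadjusted p under 0.05, 16 members were higher and 2 lower, where the background was 10.7% and 4.8%. The count of 16 fell to 7 without control replicate 1 (background 8.12%), to 5 without control replicate 3 (8.8%) and to 7 without knockout replicate 2 (6.84%). With edgeR on the reads of 4 libraries, 0 members were called in either direction (background 0.053% higher and 0.0106% lower), and 4 were higher and 0 lower at an unadjusted p under 0.05 (4.77% higher). With DESeq2 on the same reads, 0 were called (0.278% higher and 0.00843% lower), and 1 was higher and 0 lower at an unadjusted p under 0.05 (1.77% higher). All 3 knockouts lay above all 3 controls in 16 of 31 members, against 13.4% of all genes tested. All knockouts lay below all controls in 2 members, against 7.81% of all genes. Of the 16, 10 belonged to the ATF6 arm, 5 to the XBP1 arm and 1 was a sensor, and both of the 2 belonged to the ATF4/CHOP arm. Every member tested had a value of at least 7.02 in each control, so none owed its place among the tested genes to the knockouts.

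**Figure D1:**
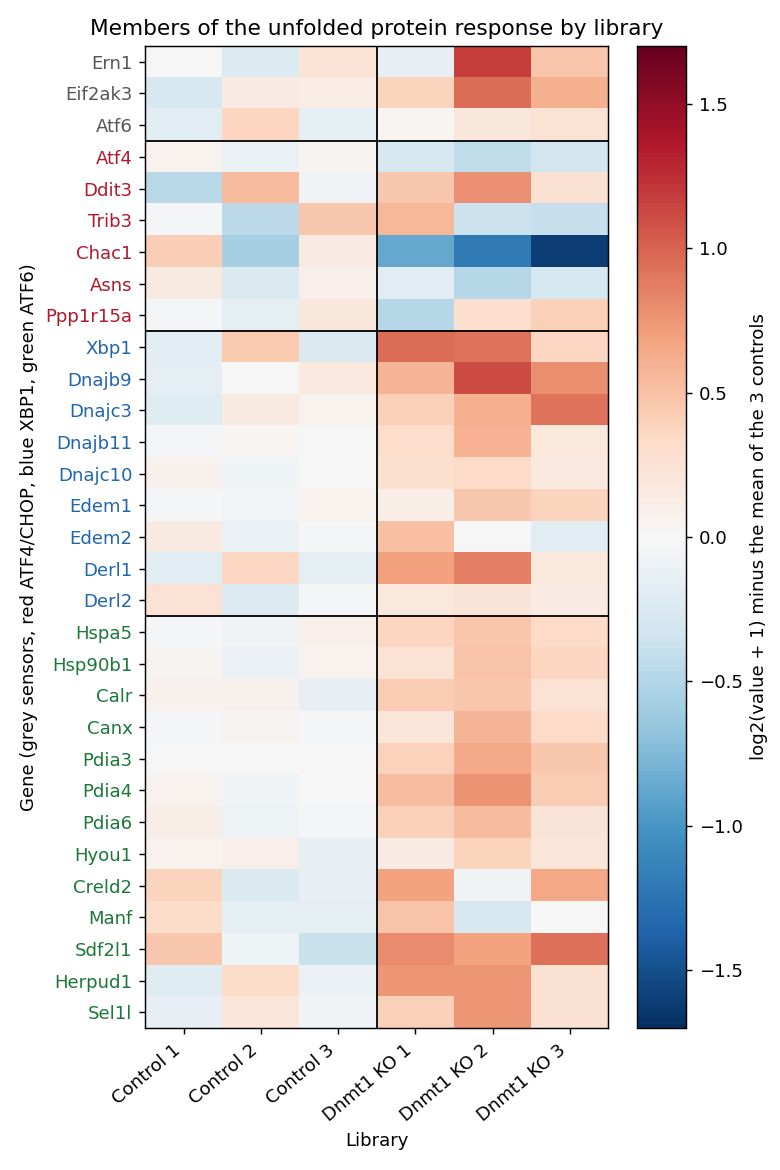
Each row is a tested member and each column a library. Colour gives log2(value + 1) minus the mean of the 3 controls. The chaperones of the ATF6 arm are shaded red in nearly every knockout cell, while Atf4, Chac1 and Asns are blue in all 3 knockouts.

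The shift was present in each knockout library. Over the 13 tested ATF6-arm genes, the median distance from the control mean was 0.41, 0.54 and 0.33 on the log2 scale in knockouts 1, 2 and 3. In controls 1, 2 and 3 it was 0.05, -0.06 and -0.06. The controls are centred on 0 by construction, since the distance is from their own mean, so their values are no measure of a null. Over all genes tested it was 0.06, 0.07 and 0.02 in knockouts 1, 2 and 3. For the XBP1 arm it was 0.40, 0.59 and 0.18 in the knockouts and -0.02, -0.00 and -0.01 in the controls. Knockout replicate 2 lay farthest out in both arms. The ATF4/CHOP arm lay at -0.23, -0.40 and -0.30 in the knockouts, and control replicate 2, at -0.21, lay close to them.

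Among the chaperones of the ATF6 arm, the most abundant per kilobase of exon in controls were Hsp90b1 (733 per kb), Calr (672) and Hspa5 (576), followed by Pdia3 (333), Canx (305) and Pdia6 (258). Hspa5 (chromosome 2, 34772090 to 34776529, mm10, 8 exons) encodes BiP, the ER member of the HSP70 family and the partner that holds the sensors inactive. Its value was 1485, 1441 and 1596 in controls and 1936, 2092 and 1890.3 in knockouts. The groups did not overlap, and the lowest knockout lay 1.18-fold above the highest control. The means were 1507 ± 80.3 and 1973 ± 106 (SD, n = 3 each), a log2 fold change of 0.39 (SE 0.15, adjusted p = 0.242). Its interval of 95% ran from 0.06 to 0.72.

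Hsp90b1 (chromosome 10, 86690841 to 86705444) encodes GRP94, the ER form of HSP90. Control libraries had 2082, 1881 and 2099.8 and knockout libraries 2397, 2822 and 2602, with no overlap (log2 fold change 0.37, SE 0.16, adjusted p = 0.306). Exons of other annotated genes cover some of its own, and 2.96% of its 50-base words are shared with other annotated genes. Calreticulin and calnexin hold glycoproteins in the ER until they are folded. Calr had 1366, 1366 and 1185 in controls and 1753, 1804 and 1543 in knockouts (log2 fold change 0.38, adjusted p = 0.263). Canx had 1288, 1344 and 1287 in controls and 1504, 1948 and 1639 in knockouts (log2 fold change 0.37, adjusted p = 0.292). Neither gene overlapped between the groups.

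The disulfide isomerases, which form and rearrange the disulfide bonds of client proteins, included the smallest p-values of the arm, in Pdia4 and Pdia3. Pdia4 (chromosome 6, 47796141 to 47813512, 10 exons) had 317, 292 and 306 in controls and 439, 518 and 412 in knockouts. The lowest knockout was well clear of the highest control. The means were 305 ± 12.3 and 456 ± 54.9, with a log2 fold change of 0.57 (SE 0.14, adjusted p = 0.0890). Pdia3, which works with calreticulin and calnexin on glycoproteins, had 884, 878 and 876 in controls and 1153, 1375 and 1209 in knockouts (log2 fold change 0.50, SE 0.14, adjusted p = 0.127). Its 3 controls were nearly equal, and all knockouts lay above them. Pdia6 had 591, 517 and 535 in controls and 727, 796 and 636 in knockouts, again without overlap (log2 fold change 0.39, adjusted p = 0.235).

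**Figure D2:**
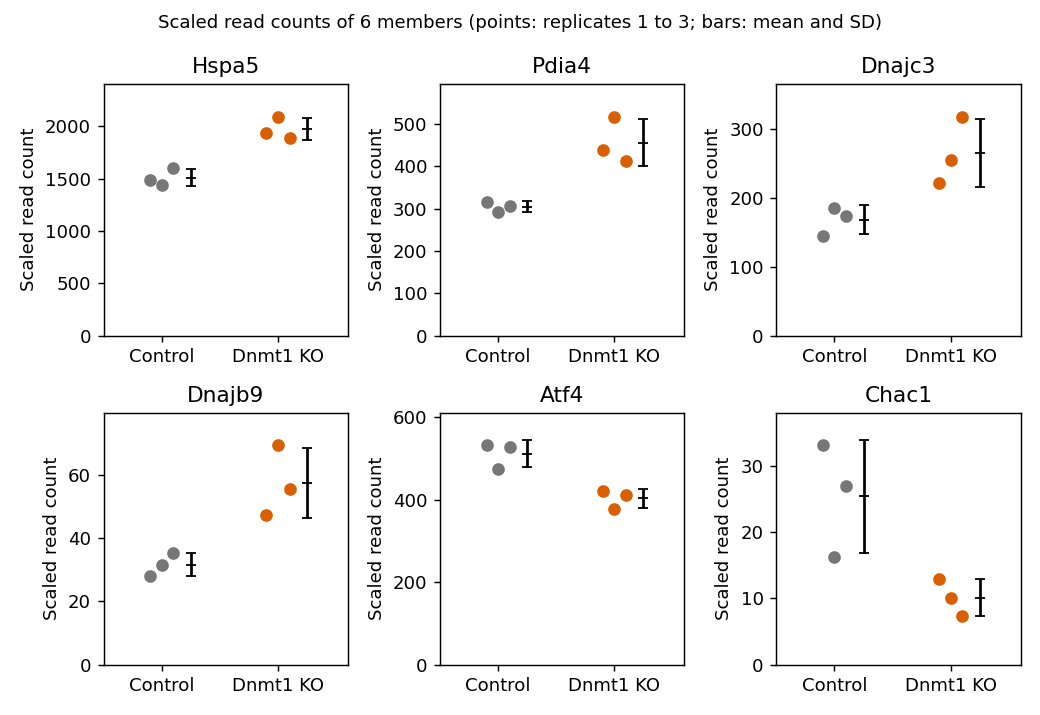
Scaled read counts of 6 members in each library, on linear axes from 0. Points are replicates 1 to 3 from left to right in each group, and bars give the mean and SD. Hspa5, Pdia4, Dnajc3 and Dnajb9 lie higher in all 3 knockouts than in any control, and Atf4 and Chac1 lie lower.

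The other ATF6-arm genes were less uniform. Sdf2l1, a partner of ER-resident J proteins, had 28.1, 19.0 and 15.2 in controls and 35.8, 33.1 and 39.4 in knockouts (log2 fold change 0.81, SE 0.29, adjusted p = 0.215). Sel1l, the adaptor of the ERAD ubiquitin ligase, had 130.4, 166 and 138 in controls and 191, 244 and 172 in knockouts (log2 fold change 0.47, adjusted p = 0.237). Neither overlapped between groups. Hyou1, an ER nucleotide exchange factor of the HSP110 type, had 437, 446 and 384 in controls and 466, 547 and 485 in knockouts (log2 fold change 0.24, adjusted p = 0.455).

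Herpud1, a membrane component of ERAD, had 52.2, 75.2 and 56.0 in controls and 102, 102 and 72.6 in knockouts (log2 fold change 0.59, SE 0.22, adjusted p = 0.232). Knockout replicate 3 lay just below control replicate 2, which was the only overlap. Creld2, an ER protein with disulfide isomerase activity, had 97.3, 62.9 and 67.8 in controls and 120.4, 71.2 and 118 in knockouts (log2 fold change 0.43, adjusted p = 0.459). Manf, a secreted ER-stress factor also known to aid muscle repair through immune cells, had 298, 216 and 214 in controls and 337, 199 and 238 in knockouts. Its log2 fold change was 0.07, with a 95% interval from -0.41 to 0.55, and its sign turned when control replicate 2 or 3 or knockout replicate 1 was left out. Derl3 was at 0 in all controls and in knockout replicate 1, and at 1.00 and 1.23 in knockouts 2 and 3, too low to test.

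In the XBP1 arm the log2 fold changes ran from 0.11 to 0.83, the highest of any member. Xbp1 itself (chromosome 11, 5520641 to 5525993, 5 exons) had 77.2, 121 and 74.7 in controls and 172, 169 and 113 in knockouts. Control replicate 2 was the highest control and lay above knockout replicate 3. Its log2 fold change was 0.74 with an SE of 0.24 (adjusted p = 0.173). Without control replicate 2 it was 0.96 and past the threshold (adjusted p = 0.0157). With any other library left out the adjusted p was 0.139 to 0.484, and with edgeR on 4 libraries it was 0.903. Dnajb9 encodes ERdj4, a J protein that recruits BiP to IRE1. It had 28.1, 31.4 and 35.3 in controls and 47.3, 69.2 and 55.4 in knockouts (log2 fold change 0.83, SE 0.23, adjusted p = 0.118). The groups were clear of each other, and 5.5% of its words are shared with other annotated genes.

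Dnajc3 (chromosome 14, 118937932 to 118981702, 12 exons) encodes p58IPK, a BiP cochaperone first described as an inhibitor of eIF2 kinases. It had 144, 186 and 174 in controls and 221, 254 and 318 in knockouts. No knockout overlapped a control. The means were 168 ± 21.2 and 264 ± 49.2 (log2 fold change 0.64, SE 0.18, adjusted p = 0.115). Without control replicate 2 the log2 fold change was 0.72 and passed (adjusted p = 0.0384). Leaving out any other library gave an adjusted p of 0.164 to 0.396. Among the other J proteins, the log2 fold change was 0.36 for Dnajb11 (ERdj3; adjusted p = 0.301) and 0.26 for Dnajc10 (ERdj5, a disulfide reductase; adjusted p = 0.411). Neither overlapped between groups, and their control values were tight, at 198 to 205 and 206 to 227.

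The ERAD genes of this arm were mixed. Edem1, which picks misfolded glycoproteins for export, had 88.3, 86.7 and 92.7 in controls and 96.1, 122 and 116 in knockouts (log2 fold change 0.31, adjusted p = 0.411). Its groups did not overlap. Derl1, a channel component of ERAD, had 87.3, 127 and 87.8 in controls and 161, 181 and 112 in knockouts (log2 fold change 0.58, SE 0.22, adjusted p = 0.251). Like Xbp1, Derl1 overlapped only in that control replicate 2 lay above knockout replicate 3. As for Dnajb9, 5.56% of its words are shared. Derl2 and Edem2 had log2 fold changes of 0.18 and 0.11, with intervals of 95% from -0.28 to 0.63 and from -0.51 to 0.72. Edem2 turned sign without knockout replicate 1.

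**Figure D3:**
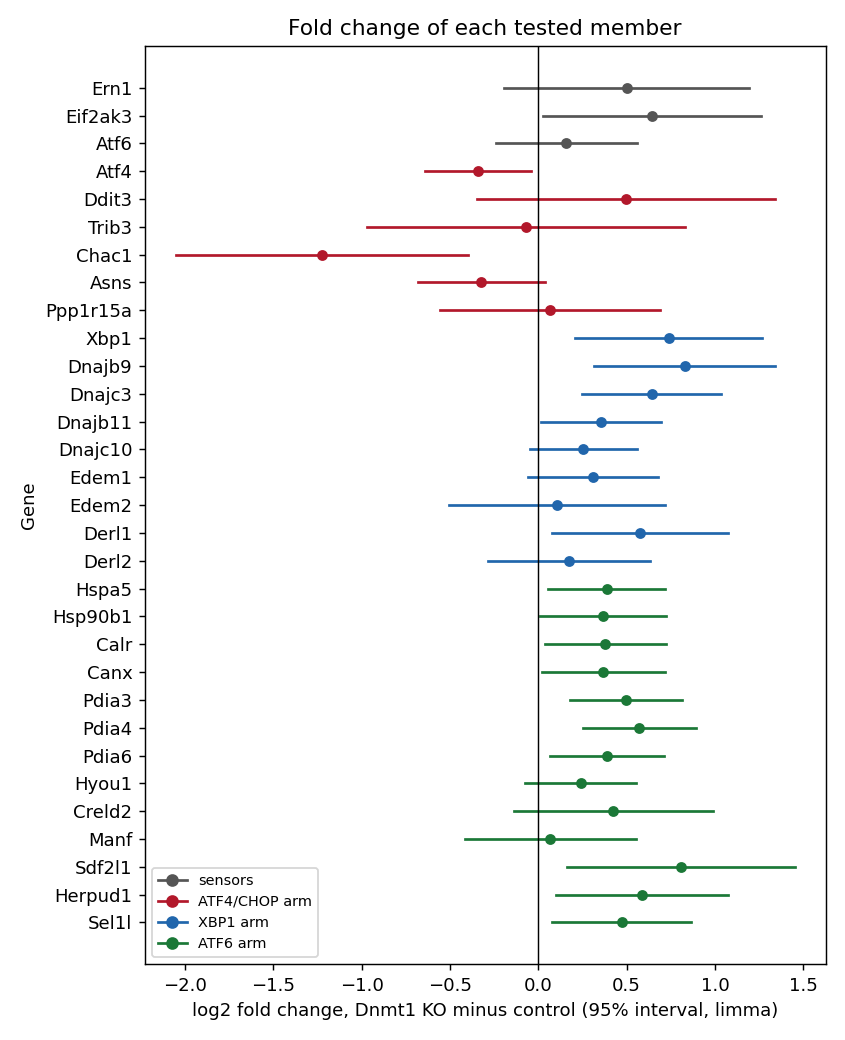
Log2 fold change of each tested member, Dnmt1 KO minus control, with its 95% interval from limma, coloured by arm. The interval lies above 0 in 16 members and below 0 in Atf4 and Chac1, before adjustment for the number of genes tested.

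The ATF4/CHOP arm held the members with lower values. Atf4 (chromosome 15, 80255184 to 80257541, 3 exons) encodes the factor whose translation PERK favours. It had 532, 473 and 529 in controls and 422, 377 and 412 in knockouts, without overlap (log2 fold change -0.34, SE 0.14, adjusted p = 0.260). Chac1 (chromosome 2, 119351242 to 119354327, 3 exons) degrades glutathione and is a sensitive ATF4 target. Control values were 33.1, 16.2 and 27.0 and knockout values 12.9, 10.03 and 7.38, without overlap. Its log2 fold change was -1.22, with an SE of 0.37 (adjusted p = 0.146) and a 95% interval from -2.05 to -0.40. It was the largest in size among the members tested. Leaving out control replicate 2 took it past the threshold (-1.51, adjusted p = 0.0366). With any other library left out its adjusted p was 0.214 to 0.462. Asns, the asparagine synthetase gene, had 328, 248.6 and 313 in controls and 259.5, 210.7 and 239 in knockouts (log2 fold change -0.32, adjusted p = 0.378). It overlapped only in that control replicate 2 lay below knockout replicate 1.

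The stress end of this arm was at low values and did not move one way. Ddit3, the CHOP gene, had 7.02, 15.2 and 9.68 in controls and 14.3, 18.1 and 12.3 in knockouts (log2 fold change 0.49, interval of 95% from -0.35 to 1.34). Its adjusted p was 0.565, and the interval spans 0. Exons of Mars on the opposite strand cover 68 bases of it. Trib3, a pseudokinase induced by CHOP, had 13.0, 9.52 and 18.7 in controls and 20.1, 10.03 and 9.85 in knockouts. Ppp1r15a encodes GADD34, which restores translation by removing phosphate from eIF2. It had 38.1, 34.3 and 44.3 in controls and 27.2, 47.2 and 51.7 in knockouts. The intervals of both genes, from -0.97 to 0.83 and from -0.56 to 0.69, allow changes in either direction. The difference between the arms was not tested.

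Of the sensors, Eif2ak3 (PERK) had 17.1, 22.9 and 22.8 in controls and 27.2, 41.1 and 31.997 in knockouts (log2 fold change 0.65, SE 0.28, adjusted p = 0.297). Its groups did not overlap, and an annotated gene on the opposite strand covers 485 bases of its exons. Ern1 (IRE1) had 49.2, 41.9 and 58.1 in controls and 44.4, 112 and 68.9 in knockouts. Knockout replicate 2 carried most of that difference, and the log2 fold change of 0.50 became 0.16 without it. Atf6 had 208, 305 and 210.2 in controls and 242, 272 and 282 in knockouts (log2 fold change 0.16, adjusted p = 0.710), with control replicate 2 the highest of all 6.

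Counts of members without overlap when a library is left out were added after the data were seen. Without control replicate 2, the knockouts lay above the controls in 21 of 31 members (22.8% of all genes) and below them in 3 (17.6%). Under that setting Xbp1 and Dnajc3 were called higher and Chac1 lower, while 5.3% of all genes were called higher and 0.916% lower. At an unadjusted p under 0.05, 12 members were then higher (14.2% of all genes) and 3 lower (8.06%). Without knockout replicate 2, 17 members lay above (16.7% of all genes) and 2 below (11.3%). The median of the ATF6 arm stayed between 0.34 and 0.45 whichever library was left out. With the mean level of contractile markers as a covariate, Xbp1, Dnajc3, Pdia3 and Pdia4 were called higher (adjusted p of 0.0281 to 0.0463) and 0 members lower, where 4.11% and 0.778% of all genes were. The log2 fold change of Xbp1 was smaller with the covariate, at 0.59 against 0.74, and its SE fell from 0.24 to 0.16. For Dnajc3 the log2 fold change was 0.65 with the covariate and 0.64 without. In the authors' deposited table, the smallest q-value among the members was 0.120, for Chac1, and 0.179 for Dnajb9 came next.

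Genes of the same pathways outside the members were taken from lists. Of 23 other ER folding enzymes tested, 0 passed in either direction, 20 had a positive log2 fold change and the median was 0.23. P4hb, the founding disulfide isomerase and a subunit of collagen prolyl hydroxylase, had 875, 807 and 727 in controls and 1243, 1583 and 1145 in knockouts (log2 fold change 0.71, adjusted p = 0.0723; named after its values were seen). Of 18 other ERAD genes, 0 passed and 15 were positive (median 0.17), and of 23 translocon and signal peptidase genes, 0 passed and 21 were positive (median 0.20). Over all genes tested, 52.4% were positive.

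Among 15 tested stress kinases and regulators, 1 passed as higher, 0 as lower, and the median was -0.06. The gene was Wfs1, which encodes wolframin, an ER membrane protein that restrains ATF6 signalling. It had 52.2, 89.5 and 72.6 in controls and 235, 333 and 169.8 in knockouts. The groups did not overlap, at 71.4 ± 18.7 and 246 ± 82.2, and Wfs1 rose with a log2 fold change of 1.75 (SE 0.27, adjusted p = 0.0130). The call was lost when control replicate 1 (adjusted p = 0.0612), knockout replicate 1 (0.0890) or knockout replicate 2 (0.0699) was left out. It was also lost with edgeR (0.230) and with DESeq2 (0.103) on 4 libraries.

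The other ATF4 targets had members in both directions. Of 25 tested, 0 passed in either direction, 17 had a negative log2 fold change and the median was -0.24. All knockouts lay above all controls in 4 of the 25 and below them in 6, against 13.4% and 7.81% of all genes tested. The genes given here were named after their values were seen, and none of them passed. Mthfd2, of the mitochondrial folate cycle, had 352, 342 and 393 in controls and 271, 187 and 241 in knockouts (log2 fold change -0.65, adjusted p = 0.0965). Shmt2, which makes glycine and one-carbon units from serine, had 518, 392 and 534 in controls and 354, 253 and 329 in knockouts (log2 fold change -0.63, adjusted p = 0.134). The serine synthesis genes Psph and Phgdh had log2 fold changes of -0.64 and -0.47. Ddit4, an inhibitor of mTORC1, had 8.03, 18.1 and 15.9 in controls and 54.5, 77.3 and 28.3 in knockouts (log2 fold change 1.82, adjusted p = 0.0646). Gdf15, a stress cytokine, had 5.02, 7.62 and 6.22 in controls and 15.8, 24.1 and 18.5 in knockouts (log2 fold change 1.48, adjusted p = 0.0761), and for Sesn2 the log2 fold change was 0.89 (adjusted p = 0.107).

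The aminoacyl-tRNA synthetases, many of which ATF4 induces, had 0 of 12 past the test, 10 negative and a median of -0.17. The cytosolic heat shock list, which serves the separate response of HSF1, had 0 of 15 past the test. Of these, 5 were positive and 10 negative, with a median of -0.06. The list was not uniform. All knockouts lay above all controls in 4 of the 15 and below them in 0, against 13.4% and 7.81% of all genes tested. The 4 were Hspa1b, Hspb1, Bag3 and Dnajb1, with log2 fold changes of 1.19, 0.93, 0.57 and 0.36.

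**Figure D4:**
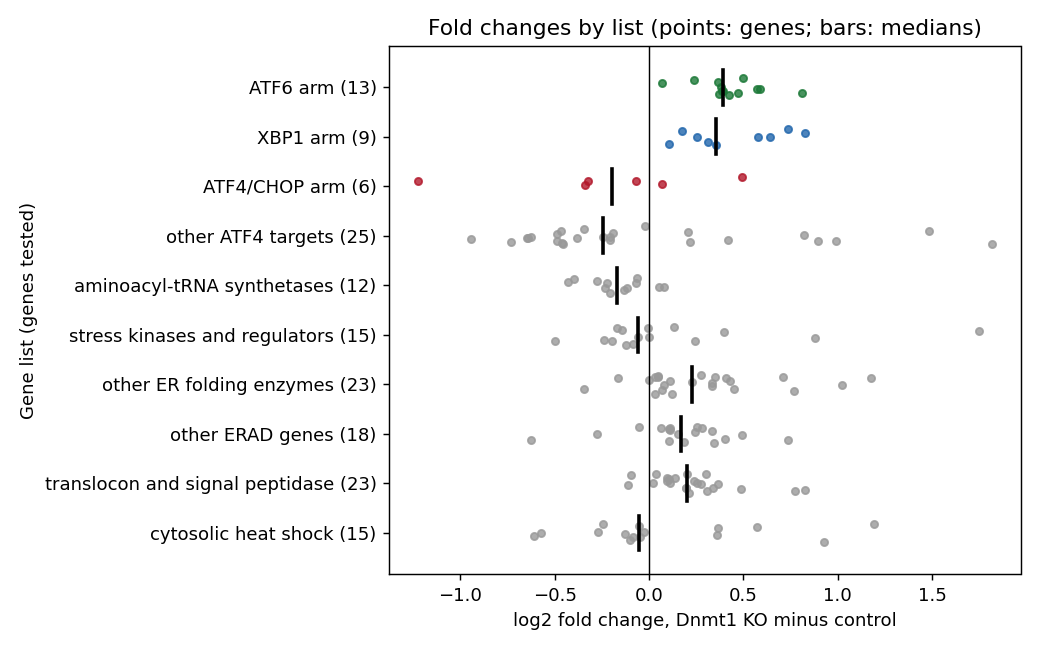
Log2 fold changes, Dnmt1 KO minus control, of the tested genes in the 3 arms and in the 7 other lists. Points are genes and black bars are list medians. The medians of the ER folding, ERAD and translocon lists lie between 0.17 and 0.23. Those of the ATF4/CHOP arm, the other ATF4 targets and the aminoacyl-tRNA synthetases lie below 0. The medians of the stress kinases and regulators and of cytosolic heat shock, both -0.06, also lie below 0.

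Genes outside the members whose promoter windows hold an ERSE were also followed. There were 29 such genes, of which 16 were in the table and 12 were tested. Of the 12, Xlr3a and Xlr3c were at 0 in all controls, so the filter fixed their direction. Among the other 10, a selection made after the data were seen, 7 had a positive log2 fold change and the median was 0.35. All knockouts lay above all controls in 1 of the 10 and below them in 1, against 13.4% and 7.81% of all genes tested. By limma 1 was called higher, the germ cell gene Tdrd9, and 0 lower. Tdrd9 had 3.01, 1.90 and 0 in controls and 15.8, 25.1 and 18.5 in knockouts. Fewer than 3 controls reached 1 for Tdrd9 and for Xlr3b, so both passed the filter only with knockout values. Both are among the 7 positive genes, so neither that count nor the call is a test of the element. Syvn1, the ERAD ubiquitin ligase that works with Sel1l, had 53.2, 57.1 and 40.8 in controls and 67.4, 94.3 and 55.4 in knockouts (log2 fold change 0.49, adjusted p = 0.373). These genes were named after their values were seen. For the ATF4 core, 240 other genes above 0 in at least 1 control were tested, with a median of 0.06.

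Markers of other cell types were followed in the same libraries. Of 12 fibro-adipogenic markers, 7 were tested and 2 passed as higher, Col1a1 and Gsn, with a median of 0.95. All 7 had a positive log2 fold change. The summed value of the list was 392 to 694 in controls and 709 to 1192 in knockouts, of which Gsn made up 50.2 to 192 and 267 to 583. Col3a1 made up 296 to 489 of the sum in controls and 399 to 488 in knockouts. It overlapped between groups (log2 fold change 0.31, adjusted p = 0.488, limma). Of the other markers in the list, Lum, Dpt and Dpp4 were at 0 in all 6 libraries. Pdgfra had 9.03, 0.952 and 4.84 in controls and 8.60, 6.02 and 1.23 in knockouts. By limma the log2 fold change was 0.95 for Ly6a (adjusted p = 0.480) and 1.84 for Smoc2 (adjusted p = 0.423), and both overlapped between groups. Of the macrophage markers, 3 were tested and 1 passed, Laptm5, with summed values of 21.9 to 38.1 in controls and 77.5 to 189 in knockouts. Laptm5 alone made up most of that sum, at 20.0 to 35.1 in controls and 67.7 to 179.6 in knockouts. Cd14, also tested, was at 0 in all controls, so the filter fixed its direction. Ptprc, Fcgr1, Tyrobp, C1qa, C1qb, C1qc, Ctss and Aif1 were at 0 in all libraries. Endothelial markers summed to 6.67 to 22.1 in controls and 14.8 to 20.1 in knockouts, with 0 of 6 past the test. Of the plasma and B cell markers, whose cells are rich in ER chaperones, only Sdc1 could be tested (log2 fold change 0.61, adjusted p = 0.0992), and Cd79a, Cd79b, Ms4a1, Prdm1 and Irf4 were at 0 throughout. Satellite cell markers had 1 of 11 past the test, Pax7, as lower, with 6 positive and 5 negative. All knockouts lay below all controls in 3 of the 11 and above them in 0, against 7.81% and 13.4% of all genes tested. The 3 were Pax7, Myf5 and Myod1, with log2 fold changes of -0.85, -0.77 and -0.35. Contractile markers had 0 of 25 past the test and a median of 0.88. The part that the other cell types have in the chaperone values was not tested.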

How the data were processed

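RNA from 3 control and 3 Dnmt1 KO samples was sequenced. The submitters' processing notes name TopHat, featureCounts and mm10. Versions, annotation, strand setting and scaling: not given in the sources used here. Libraries were made with a stranded kit, per the labels' protocols, but whether the counting used strand is not stated, so reads of overlapping antisense genes may not have been told apart. The deposited values are a signal that is never negative: 1 factor per sample times the read count, with 100% of values whole multiples of the smallest within 0.001. The p-value and q-value columns are the authors' own, from a test not given in the sources used here.

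Values were taken as log2(value + 1), only genes reaching 1 in 3 or more libraries were tested, and groups were compared with limma 3.58.1 (R 4.3.3, intensity trend, Benjamini-Hochberg adjustment at 0.05 over all 12591 genes). Fold changes on this scale understate those of low genes. Alternatives used edgeR 4.0.16 and DESeq2 1.42.0 on reads recovered in 4 libraries, 2 per group. The other 2 libraries, in which 1 read is worth 1.003 units, were left out of these because so small a scaling was not accepted as recovered reads. On simulated counts with 200 changed genes, limma recovered 1.43% of 1.5-fold, 22.9% of 2-fold and 88.3% of 4-fold changes (12729 genes tested, 1 false call in 71). No batch is given in the labels. Members, arms, 7 pathway lists and 6 marker lists were chosen with earlier results of these data known. The rule for named genes took all 32 members, Dnmt1 and up to 4 called genes per pathway list and direction, which gave Wfs1. Other genes of the pathway and promoter motif lists were named after their values were seen, and marker genes to describe their lists. Words of 50 bases and exon overlaps came from GENCODE M21.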

Additional observations from a re-analysis of the deposited data

How the results depend on the processing

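The count of called genes (210 higher, 12 lower) depended on the setting. It was 121 and 6 with a pseudocount of 0.1, 517 and 98 with the contractile covariate, 5 and 1 with edgeR and 33 and 1 with DESeq2 on 4 libraries, and 12 to 659 and 1 to 114 with each library left out. With the other scalings (medians of all genes within 0.1 of 0) and filters it stayed within 1.5 times. Members called higher were 4 with the covariate and 0 to 2 with a library left out, and members called lower were 0 to 1. The replicate numbers were not taken as pairs, since the deviations of same-numbered samples correlated at -0.06, 0.22 and 0.31. Not every sample correlated best with its own number. With the replicate block, 359 genes were called higher and 76 lower, and 3 members higher (Dnajc3, Pdia3 and Pdia4). Of 496 member values under alternatives, 472 kept direction and call, 10 gained a call and 14 turned sign. With DESeq2 the log2 fold change was -0.001 for Atf6, -0.0119 for Ppp1r15a and 0.0409 for Trib3, and with edgeR 0.0364 for Trib3. With a library left out it ran from -0.38 to 0.16 for Trib3, -0.11 to 0.34 for Ppp1r15a, -0.10 to 0.26 for Edem2 and -0.14 to 0.24 for Manf. Recovery was not measured by expression level, so the effect of depth on single members is not known. The causes were not tested.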
